A study of Homo sapiens with 2 samples.

Results

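The 9 long noncoding RNA genes described here are MALAT1, NEAT1, TUG1, NORAD, OIP5-AS1, KCNQ1OT1, PVT1, H19 and MEG3, taken by their NCBI gene IDs from 27685 gene IDs in the deposited tables. They were measured in H1299, an established human non-small cell lung cancer line, in 1 library from cells given 5 mM metformin and 1 library from untreated cells, the control. Metformin is a biguanide drug used against type 2 diabetes. Both groups were of the same line at the same range of passages, and the sources used here do not give the length of treatment. Each group is 1 library, so no difference below has a replicate check and no test was possible. The intervals cover the counting of reads only, not the spread between cultures. All 9 IDs had 1 row in each table.

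Long noncoding RNAs are transcripts that act as RNA. MALAT1 lies in nuclear speckles, the stores of splicing factors, and NEAT1 is the scaffold on which paraspeckles, another kind of nuclear body, assemble. NORAD is mainly cytoplasmic and binds the PUMILIO proteins, which otherwise shorten the life of mRNAs, while KCNQ1OT1, H19 and MEG3 come from imprinted regions, where 1 parental copy is silenced.

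The 3′ ends of MALAT1 and NEAT1 are shown because they bear on what an mRNA library can hold. As background, neither MALAT1 nor the long form of NEAT1 ends in an ordinary poly(A) tail: RNase P cuts them just before a small RNA folded like a tRNA, which is called mascRNA at MALAT1, and a triple helix of U-rich and A-rich stretches protects the new end. The short form of NEAT1 is cut and polyadenylated at an ordinary signal. All 4 stretches below are the plus strand of chromosome 11 in the hg19 genome, 5′ to 3′. In the first and second, capitals mark TTTTGCTTTT and AAAAGCAAAA, reverse complements of each other and the longest such pair that a search found in both windows, and in the third they mark the polyadenylation signal AATAAA. The small RNA is printed in lower case throughout.
MALAT1 end before mascRNA, chr11:65273428-65273587: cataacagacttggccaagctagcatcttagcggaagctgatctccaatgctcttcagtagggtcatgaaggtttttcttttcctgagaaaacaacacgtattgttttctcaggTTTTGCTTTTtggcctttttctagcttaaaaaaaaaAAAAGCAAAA
NEAT1 long form end, chr11:65212852-65213011: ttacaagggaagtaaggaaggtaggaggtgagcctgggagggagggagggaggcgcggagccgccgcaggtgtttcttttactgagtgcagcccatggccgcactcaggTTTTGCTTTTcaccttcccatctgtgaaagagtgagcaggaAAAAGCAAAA
NEAT1 short form end, chr11:65193925-65193984: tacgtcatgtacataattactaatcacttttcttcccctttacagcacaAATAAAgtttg
mascRNA, chr11:65273588-65273645: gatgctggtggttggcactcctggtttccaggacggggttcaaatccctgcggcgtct
Each of the 160-base windows at the ends of MALAT1 and long NEAT1 held 1 match to TTTTGCTTTT and 1 to AAAAGCAAAA, with 26 bases between them in MALAT1 and 31 in NEAT1. The run of A before the G was 13 bases long in MALAT1 and 5 in NEAT1. Since the motifs are reverse complements, a search of the other strand gives the same matches with the names exchanged. Of 53417 GENCODE canonical transcripts with a window of that length at their end, 0.17% held TTTTGCTTTT, 0.234% held AAAAGCAAAA and 1, NEAT1, held both. The MALAT1 models of GENCODE and of the deposited tables run past this end, in the tables by 338 bases beyond mascRNA. These matches describe the letters and do not show how the RNAs were processed in these cells.

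NORAD is shown for its matches to the motif of the PUMILIO proteins. The motif TGTA, any base, then ATA, which as background is the element these proteins bind, occurred 15 times in the 5343 bases of NORAD, or 2.81 per kilobase, with 1 match on the opposite strand. Of the 15, 10 read TGTATATA and 4 read TGTAAATA, no match overlapped another, and they began between positions 761 and 4599 counted from the 5′ end. The 5 TGTATATA matches with no other match within 30 bases are printed with their surroundings from the minus strand of chromosome 20 in hg19, with the motif in capitals.
NORAD position 761, chr20:34638104-34638133: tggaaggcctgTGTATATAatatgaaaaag
NORAD position 1140, chr20:34637725-34637754: cctcactactgTGTATATAgttgacaatgc
NORAD position 2039, chr20:34636826-34636855: ttgttttgctcTGTATATAgtatatataat
NORAD position 2972, chr20:34635893-34635922: caaccctactgTGTATATAgcggacaaact
NORAD position 3593, chr20:34635272-34635301: caatgctactgTGTATATAatggaaaactt
Among 4207 GENCODE canonical transcripts at least as long as NORAD, 38.0% held the motif in their first 5343 bases and 34.2% held it on the opposite strand, and 2 held it 15 times or more. MALAT1 held no match in its 8775 bases, and NEAT1 held 6 in 22741 bases.

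Aligned bases came to 6.40 Gb in metformin and 5.80 Gb in control, which is about 31.7 M and 28.7 M read pairs. Levels are in TPM, a transcript abundance that takes length into account and is expressed relative to the rest of a library. KRT8, KRT18 and VIM, expected in this line, were listed between 521 and 4962 TPM in metformin and between 269 and 4378 TPM in control. The leukocyte and endothelial markers PTPRC and PECAM1 were listed at 0.027 TPM or less in both libraries. The fibroblast gene COL1A1 was listed at 0.342 TPM in metformin and 0.166 TPM in control, the lung regulator NKX2-1 at 0.307 and 0.491 TPM, and the surfactant gene SFTPB at 0 in both.

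The levels of the 9 RNAs spanned more than 3 orders of magnitude. In metformin the order was NEAT1, NORAD, MALAT1, TUG1, OIP5-AS1, PVT1, MEG3, KCNQ1OT1 and H19, and control differed from it only in that H19 stood above KCNQ1OT1. Neighbours in this order were separated by their 95% counting intervals except KCNQ1OT1 and H19 in both libraries and MEG3 and H19 in control. The name abundant fits 5 of the 9. PVT1 lay near 10 TPM, MEG3 near 1 TPM, and KCNQ1OT1 and H19 at 0.25 TPM or less in both libraries. Whether the RNAs were nuclear was not measured, since whole-cell RNA was sequenced.

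**Figure D1:**
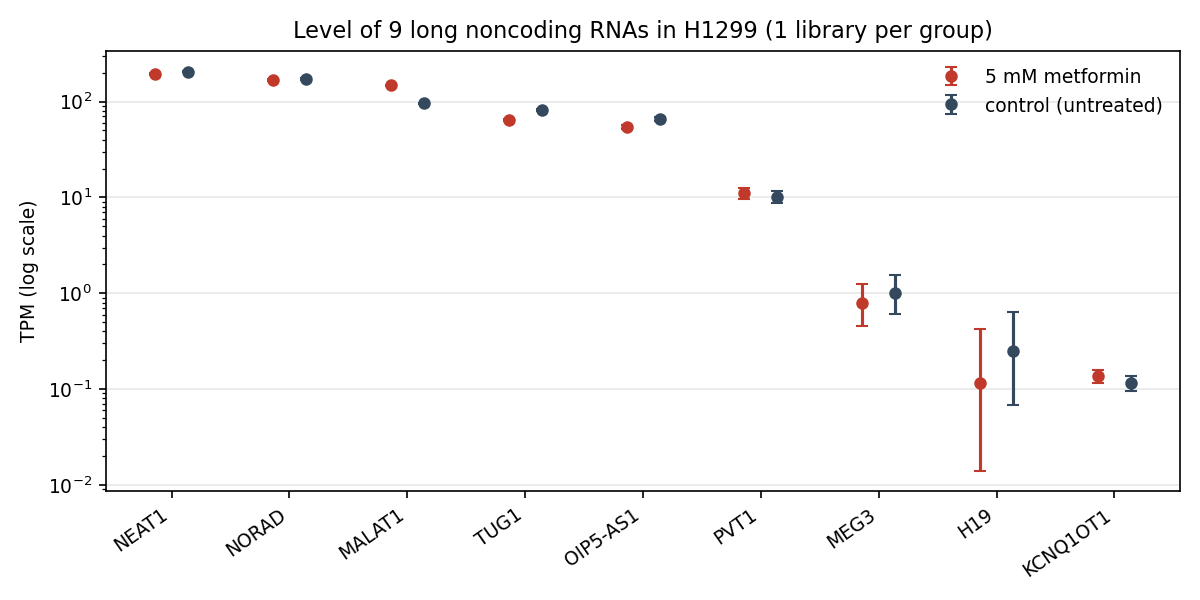
TPM on a log scale for each of the 9 RNAs in the metformin library (red, left) and the control library (dark blue, right); bars are exact Poisson 95% intervals from estimated read pairs and cover counting only. MALAT1 stands at 148 TPM in metformin and 95.8 TPM in control, while H19 and KCNQ1OT1 lie at 0.25 TPM or less in both.

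A gene was counted as measured at 1 TPM or more in at least 1 library, which held for 7 of the 9 RNAs and for 14078 genes in all. MEG3, at 1.004 TPM in control, lay just inside that limit, and H19, at 0.25 TPM in control, was the nearest below it. The difference used is that of log2(TPM + 1), metformin minus control, which understates differences of low genes, and 1 or more in size was called 2-fold. Of the 7 measured RNAs, 0 were past 2-fold in either direction, against 2.76% of all measured genes, 1.51% higher and 1.24% lower. The higher and lower calls numbered 213 and 175, and they numbered 270 and 114 after centring on the median of genes at 10 TPM or more, or 262 and 130 with trimmed mean scaling. On this scale 2 of the 7 lay above 0 and 5 below, with a median difference of -0.08, and the median over all measured genes was also -0.08. After centring or trimmed mean scaling 4 lay above 0 and 3 below, with a median of 0.01. The 9 RNAs together held 643 TPM in metformin and 633 TPM in control.

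**Figure D2:**
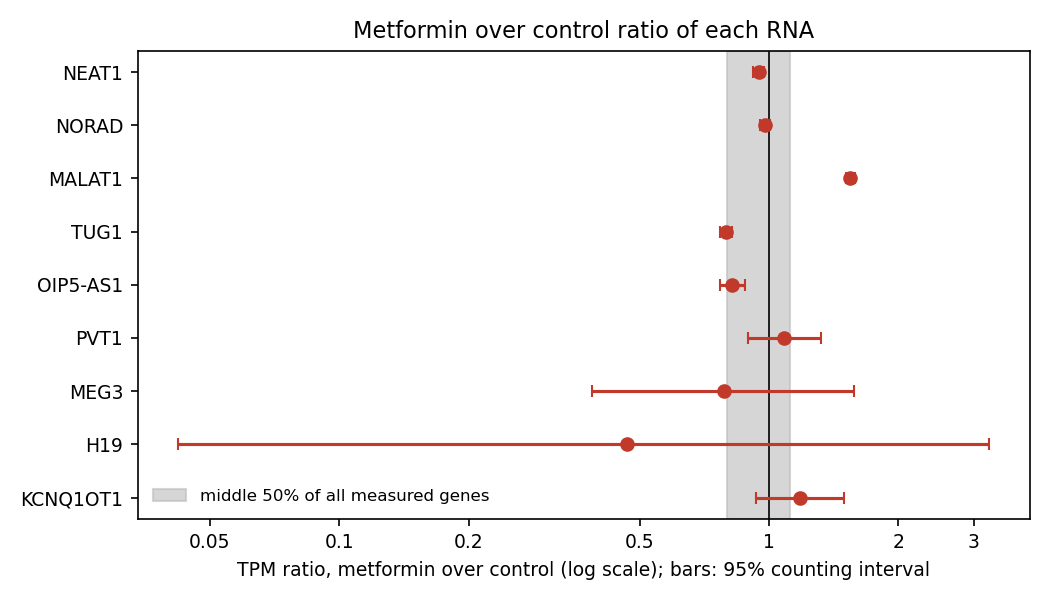
Ratio of TPM, metformin over control, on a log axis for each RNA, with the 95% counting interval; the grey band holds the middle 50% of genes measured above 0 in both libraries, 0.799 to 1.12. MALAT1 lies above the band at 1.55, TUG1 lies just below it at 0.795, and H19 spans 0.042 to 3.26.

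MALAT1 (NCBI gene 378938, chromosome 11, 65265209 to 65273983 of hg19, plus strand) was listed at 148 TPM in metformin and 95.8 TPM in control. The metformin library was the higher, by 1.55-fold (95% counting interval 1.51 to 1.58), from an estimated 17736 and 10064 read pairs in metformin and control. In bulk RNA, more RNA in each cell and more cells that hold it cannot be told apart. As given above, MALAT1 does not end in an ordinary poly(A) tail. How an mRNA kit captured MALAT1 in each library was not tested, and its level, rank and ratio carry that limit. Its log2 difference was 0.62. It was the largest in size among the 9, except with a pseudocount of 0.1, where H19 stood at -0.69, and 4.81% of measured genes had a larger positive one. Among genes that RefSeq classes as long noncoding, MALAT1 was the 10th most abundant in metformin and the 12th in control. It remained above 0 in all 8 alternatives tried, between 0.60 and 0.73.

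NEAT1 (NCBI gene 283131, chromosome 11, 65190269 to 65213009, plus strand) lies 52.2 kb from MALAT1 on the same strand. It was the most abundant of the 9, at 195 TPM in metformin and 206 TPM in control. The ratio was 0.946 (0.920 to 0.973), and the log2 difference of -0.08 lay at the median of all measured genes, turning to 0.01 when the libraries were centred or scaled by a trimmed mean. The TPM of MALAT1 was 0.76 of that of NEAT1 in metformin and 0.465 in control.

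The deposited coverage gives a view of the mean length of the NEAT1 transcripts. Coverage is the mean read depth over all exons of a gene, whereas FPKM adds up the forms, so their ratio, set against the highest ratio in the library, gives a mean transcript length if the tables were made as their layout implies. For NEAT1, whose row spans 22741 bases as 1 exon, this mean was 3.77 kb in metformin and 3.76 kb in control. GENCODE lists 8 shorter NEAT1 transcripts of up to 3524 bases and 1 long form of 22743 bases. The mean lay near the length of the short forms and far from that of the long form in both libraries. This mean weighs each form by its FPKM and not by its reads, so the share of reads from each form was not measured. How much of the long form, which builds paraspeckles, an mRNA kit captured was not tested, so these values do not give its level. Coverage divided by depth, which averages all NEAT1 reads over the 22741 bases wherever they lie, had a ratio of 0.971 between metformin and control. By the same measure MALAT1 had a mean length of 8.70 kb in metformin and 8.63 kb in control, near its full 8775 bases, and a coverage ratio of 1.60.

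FRMD8 and LTBP3, protein-coding genes near MALAT1 and NEAT1, differed by less than MALAT1. FRMD8, before NEAT1, was listed at 26.4 and 27.9 TPM in metformin and control. LTBP3, a binding protein of latent TGF-beta, was listed at 33.1 TPM in metformin and 28.6 TPM in control. TALAM1, the antisense transcript of MALAT1, was listed at 0.496 TPM in metformin and 0.136 TPM in control, a ratio of 3.65 (1.97 to 7.27) from an estimated 55 and 13 read pairs. It stood at 0.335% of the MALAT1 level in metformin and 0.142% in control. The sources used here do not say whether strand was used in counting, so reads of TALAM1 and MALAT1 may not have been told apart. The rows of mascRNA and of MIR612, a microRNA gene inside NEAT1, were at 0.226 TPM or less in both libraries and rested on less than 1 estimated read pair each.

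**Figure D3:**
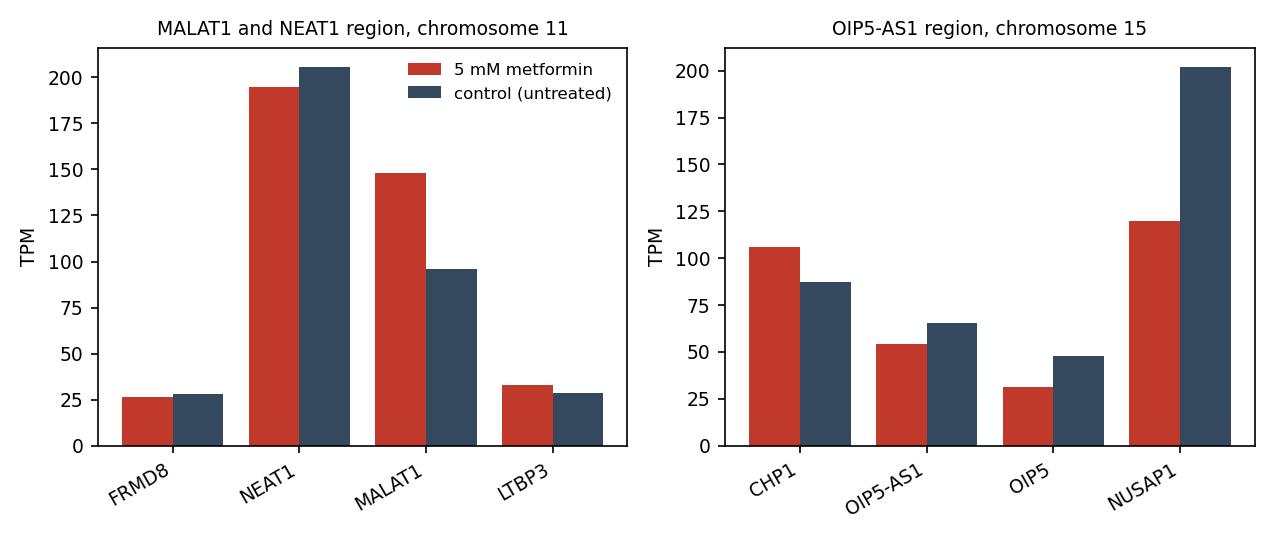
TPM of MALAT1, NEAT1 and OIP5-AS1 with some neighbouring genes in genome order, metformin (red, left) and control (dark blue, right), 1 library each. In the left panel MALAT1 differs by 1.55-fold while NEAT1 stands at a ratio of 0.946; in the right panel OIP5-AS1, OIP5 and NUSAP1 are lower in metformin and CHP1 is higher.

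TUG1 (NCBI gene 55000, chromosome 22, 31365197 to 31375380, plus strand), an RNA known to bind chromatin-modifying complexes and classed as protein coding in the RefSeq table, was listed at 64.8 TPM in metformin and 81.5 TPM in control. The metformin value was the lower, at a ratio of 0.795 (0.769 to 0.822). Its log2 difference was -0.33, and 21.7% of measured genes had a lower one. MORC2, which starts 924 bases away on the other strand, was listed at 28.8 TPM in metformin and 27.0 TPM in control, a ratio of 1.07 (1.003 to 1.14). The gene on the other side, SMTN, was listed at 17.3 and 23.9 TPM in metformin and control. Of the listed gene neighbours of the members 9 were measured, 6 above 0 and 3 below, with a median of 0.03 that turned to -0.12 without the GC and length trend.

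OIP5-AS1 (NCBI gene 729082, chromosome 15, 41576201 to 41591795, plus strand), known as the RNA that brings about decay of the microRNA miR-7, was listed at 53.9 TPM in metformin and 65.6 TPM in control, a ratio of 0.822 (0.768 to 0.879). Its log2 difference of -0.28 and that of TUG1 stayed below 0 in all 7 alternatives of each. OIP5, a centromere protein gene on the other strand, was listed at 31.3 TPM in metformin and 47.9 TPM in control, a ratio of 0.654 (0.583 to 0.734). NUSAP1, a spindle protein beyond it, was listed at 120 TPM in metformin and 202 TPM in control, a ratio of 0.592. CHP1, which lies 2118 bases before OIP5-AS1 and encodes a calcineurin-like protein, stood the other way, at 106 TPM in metformin and 87.1 TPM in control. In the deposited tables the spans of OIP5-AS1 and OIP5 are 9671 bases apart and do not overlap.

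NORAD (NCBI gene 647979, chromosome 20, 34633540 to 34638882, minus strand), with the PUMILIO sites printed above, was listed at 169 TPM in metformin and 172 TPM in control. The ratio of 0.98 had a counting interval of 0.955 to 1.01 that included 1. Its log2 difference of -0.03 turned to 0.06 after centring or trimmed mean scaling and to 0.08 without the trend over GC content and length. Of 8 genes listed as its partners, all 8 lay below 0, with a median of -0.35 against -0.08 over all genes, and 0 were past 2-fold. Of all measured genes 40.3% lay above 0 and 2.76% were past 2-fold. RBMX, among the 8, is also in the list of paraspeckle proteins below. PUM2 was listed at 44.2 TPM in metformin and 59.9 TPM in control, a ratio of 0.739 (0.708 to 0.772). PRPF19, a splicing factor, stood at 0.731 of control and KHDRBS1, an RNA-binding protein also called SAM68, at 0.906.

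PVT1 (NCBI gene 5820, chromosome 8, 128806779 to 129113499, plus strand), the long noncoding RNA beside the MYC oncogene, was listed at 11.02 TPM in metformin and 10.1 TPM in control, a ratio of 1.09 (0.895 to 1.32). The interval includes 1, so a difference was not detectable at this depth. MYC was listed at 241 TPM in metformin and 195 TPM in control, a ratio of 1.24 (1.20 to 1.27). Of the microRNA genes inside PVT1, MIR1204 was listed at 1.22 and 1.79 TPM in metformin and control from about 1 read pair each. MIR1206 was listed at 0.39 and 0.158 TPM in metformin and control, MIR1207 at 0.277 TPM and 0, and MIR1205 at 0 in both. The MIR1206 and MIR1207 values rested on less than 1 estimated read pair each.

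The 3 imprinted RNAs were at low levels. MEG3 (NCBI gene 55384, chromosome 14, 101292445 to 101327360, plus strand), a maternally expressed RNA, was listed at 0.789 TPM in metformin and 1.004 TPM in control, from an estimated 17 and 20 read pairs. Its ratio of 0.786 had an interval of 0.387 to 1.58. H19 (NCBI gene 283120, chromosome 11, 2016406 to 2022696, minus strand), the maternally expressed host of MIR675, was listed at 0.117 TPM in metformin and 0.25 TPM in control from an estimated 2 and 4 read pairs, and the ratio of 0.467 had an interval of 0.042 to 3.26. KCNQ1OT1 (NCBI gene 10984, chromosome 11, 2629558 to 2721228, minus strand), a paternally expressed antisense RNA that silences neighbours in cis, was listed at 0.136 TPM in metformin and 0.115 TPM in control. Its length of 91671 bases makes the same TPM rest on more reads, an estimated 172 and 129 read pairs, and the ratio was 1.18 (0.935 to 1.496). All 3 intervals include 1.

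The neighbours of the imprinted RNAs differed widely in level. KCNQ1, which overlaps KCNQ1OT1 on the other strand, was listed at 0.02 TPM in metformin and 0 in control, MIR675 at 0 in both, and MEG8, RTL1 and DLK1 of the MEG3 region at 0.093 TPM or less in both. IGF2, a growth factor that shares an imprinted region with H19, was listed at 91.6 TPM in metformin and 77.9 TPM in control, a ratio of 1.17 (1.13 to 1.22), so in this line IGF2 was far above H19. Of 13 listed neighbours 7 were measured, 4 above 0 and 3 below, with a median of 0.14. Without the trend over GC content and length, 1 of the 6 with a value lay above 0 and 5 below, with a median of -0.07. SLC22A18, a transporter gene now named SLC67A1, was past 2-fold, at 18.3 TPM in metformin and 8.49 TPM in control, a ratio of 2.16. SLC22A18 had no GC content or length to fit and is not among those 6, so that alternative could not test its difference. With a pseudocount of 5 or from FPKM, 0 of the 7 were past 2-fold. SLC22A18 has an antisense partner gene whose reads may not have been told apart. TSSC4, at a ratio of 0.715, and PHLDA2, at 0.923, were the lowest, and the growth inhibitor CDKN1C was listed at 1.34 and 1.13 TPM in metformin and control.

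The nuclear proteins that work with these RNAs had median differences below that of all measured genes in each of 5 lists. None were past 2-fold, against 2.76% of all measured genes. The same held after centring and trimmed mean scaling, but not for the nuclear speckle list without the GC and length trend, where its median was -0.05 against -0.08 for all genes. Of 26 paraspeckle proteins 22 lay below 0, with a median of -0.25 (-0.16 after centring), against -0.08 for all measured genes and 40.3% of those above 0. SFPQ, which is needed to form paraspeckles around NEAT1, was among the lowest, at 186 TPM in metformin and 335 TPM in control, a ratio of 0.555 (0.541 to 0.569). CIRBP and RBM3, cold-inducible RNA-binding proteins, were the highest, at 1.28 and 1.09 times control. NONO, another core paraspeckle protein, was listed at 661 TPM in metformin and 764 TPM in control.

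Among 26 nuclear speckle and SR proteins, with which MALAT1 is associated, 18 lay below 0 and 8 above, with a median of -0.13, and 14 lay below 0 and 12 above after centring, with a median of -0.04. SRSF3, a splicing factor, was listed at 133 TPM in metformin and 231 TPM in control, a ratio of 0.577 (0.560 to 0.593), and SRSF6 stood at 0.676 of control. CLK3, a kinase that phosphorylates SR proteins, and SRSF1 were the highest, at 1.28 and 1.18 times control. The speckle scaffolds SON and SRRM2 were listed at 121 and 210 TPM in metformin and at 107 and 208 TPM in control. Of 12 genes for RNase P subunits, RNase Z and METTL16, which act on the 3′ end of MALAT1 or on mascRNA, 11 lay below 0. Their median was -0.21. After centring 9 lay below 0 and 3 above, with a median of -0.13. RPP30 was listed at 20.5 TPM in metformin and 33.7 TPM in control and METTL16, which binds the triple helix, at 24.0 and 27.6 TPM. Before centring RPP38 was the member above 0, at a ratio of 1.15, and POP7 stood at 0.703 and RPP14 at 0.992.

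Of 10 genes of the silencing complexes to which TUG1, KCNQ1OT1 and other members are known to bind, 9 lay below 0. Their median was -0.33, against -0.08 for all measured genes. After centring 9 still lay below 0, with a median of -0.24 against 0.01 for all measured genes. EZH2, the methyltransferase of Polycomb complex PRC2, was listed at 61.6 TPM in metformin and 97.1 TPM in control, a ratio of 0.635 (0.601 to 0.670), and its partner SUZ12 stood at 0.652. EZH1, the other PRC2 methyltransferase, was the member above 0, at 13.5 TPM in metformin and 11.4 TPM in control, and EHMT1, a partner of G9a, stood at 0.934.

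**Figure D4:**
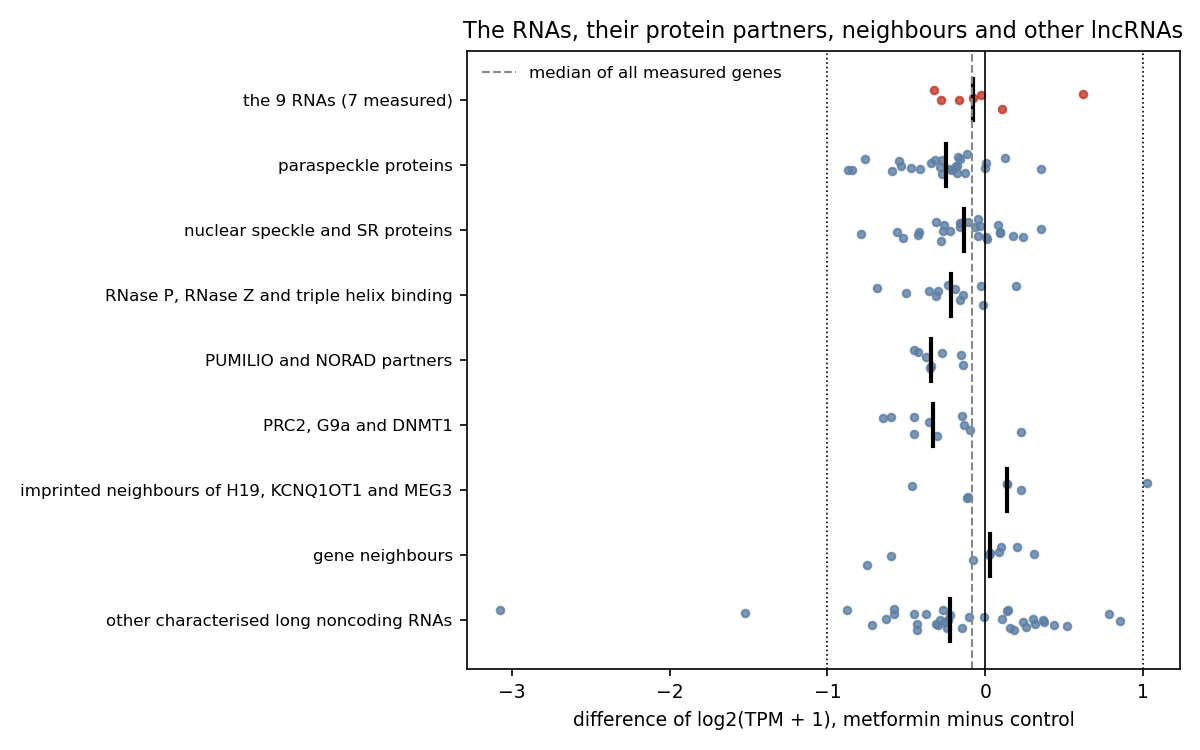
Difference of log2(TPM + 1), metformin minus control, of each measured gene in the 9 RNAs and in 8 lists; black bars are medians, the dashed line the median of all measured genes and dotted lines 2-fold. The 7 measured RNAs run from -0.33 for TUG1 to 0.62 for MALAT1, and all 8 PUMILIO and NORAD partners lie below 0.

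Set against all long noncoding RNA genes, the members other than MALAT1 lay within the bulk. RefSeq classes 4873 of the genes in the tables as long noncoding, of which 959 were measured, with a median difference of -0.08, 19 higher and 18 lower by 2-fold. At 10 TPM or more in both libraries there were 179 such genes, and 6 of them had a larger difference than MALAT1, the highest being GAS5, a snoRNA host, at 528 TPM in metformin and 284 TPM in control. None of those 6 except GAS5 was listed above 50 TPM in either library. At the other end, ZNF667-AS1 was listed at 15.1 and 32.3 TPM in metformin and control. Before NEAT1, which was the 8th most abundant in metformin and the 9th in control, nearly all of the more abundant genes were snoRNA hosts such as SNHG5.

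**Figure D5:**
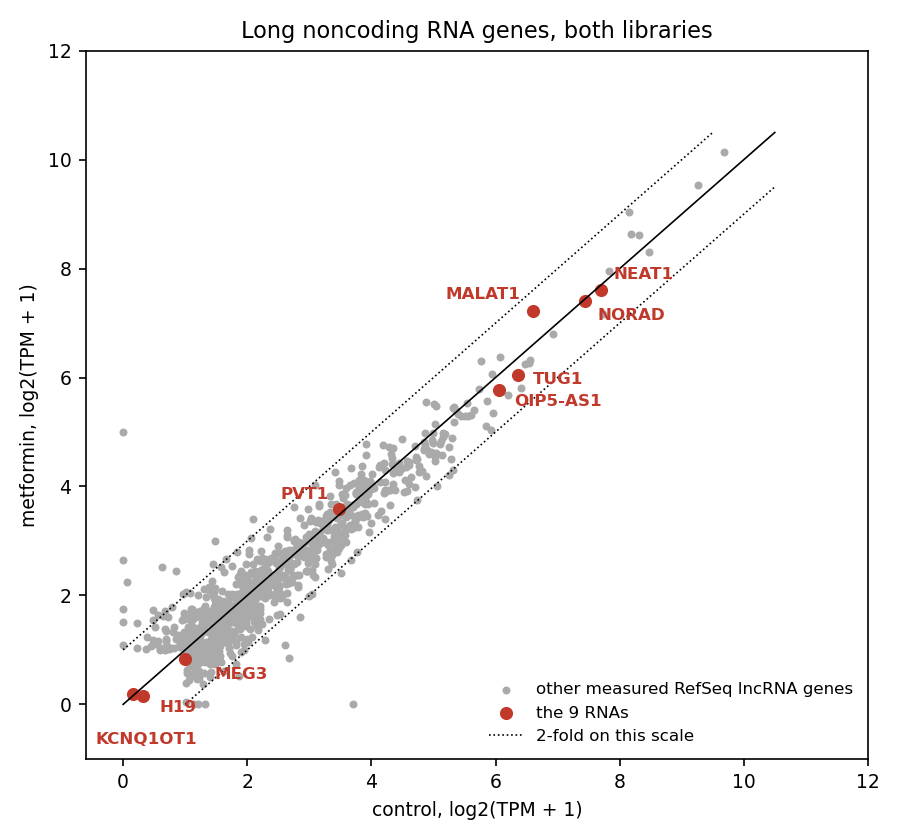
log2(TPM + 1) in metformin against control for the measured genes that RefSeq classes as long noncoding (grey) and the 9 RNAs (red); the solid line is equality and the dotted lines 2-fold on this scale. MALAT1 lies above the line of equality but inside the 2-fold line, and the other 8 lie close to equality.

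Another 57 well-characterised long noncoding RNAs gave 37 measured genes, 15 above 0 and 22 below, with a median of -0.22. By 2-fold, 0 were higher and 2 lower, which is 5.41% of the 37 against 2.76% of all measured genes. RMRP, the RNA of RNase MRP, was listed at 2.16 TPM in metformin and 25.7 TPM in control, and MIR17HG, the host of the miR-17 cluster, at 1.12 and 5.10 TPM. The RMRP values rested on an estimated 8 read pairs in metformin and 83 in control. As background, RMRP is short and not polyadenylated, and how an mRNA kit captured it was not tested. BCYRN1 and MIR31HG were the highest, at 18.2 and 4.82 TPM in metformin and 9.61 and 2.38 TPM in control. The BCYRN1 values rested on an estimated 50 read pairs in metformin and 23 in control, with a ratio of 1.90 (1.14 to 3.25). Its row spans 518928 bases of chromosome X, a stretch that also holds NONO on the other strand. How an mRNA kit captured BCYRN1 was not tested either. Of these 57, the closest to TUG1 in the plane of both libraries, over 2 libraries, was MIR4435-2HG at 74.96 TPM in metformin and 87.6 TPM in control, a distance of 0.23 on the log2(TPM + 1) scale. The closest to PVT1 was NBR2 at a distance of 0.34, to OIP5-AS1 MIR100HG at 0.60, and to MALAT1, NORAD and NEAT1 CYTOR at 0.90, 1.40 and 1.72.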

How the data were processed

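TruSeq Stranded mRNA libraries were sequenced on a NovaSeq and Bowtie2 mapped the reads to hg19, per the labels' protocols; Trimmomatic 0.38 and HISAT2 are named per the submitters' processing notes, and the sources used here do not name the program behind the abundances. TPM, FPKM and coverage (mean read depth, a signal) were computed by the authors and deposited, 1 table per library. Symbols came from a RefSeq table (assembly GRCh38, names only), which matched 27559 of 27685 IDs; rows of repeated IDs were summed. Aligned bases were taken from the highest ratio of coverage to FPKM, and a pair as 202 bases, the most common total of 101 bases or more in short genes. Pairs came from coverage and span for MALAT1, NEAT1, NORAD and KCNQ1OT1 and otherwise from FPKM and the length of a GENCODE 44 transcript, the one nearest in span for a member and the canonical one for other genes, so they are approximate; for short genes that overlap a member they came from coverage and span. They gave exact 95% intervals (Clopper-Pearson for ratios, Poisson for levels). A pseudocount of 1 was used. Alternatives were other pseudocounts, FPKM, coverage (added after seeing the data), centring, trimmed mean scaling, removal of a quadratic trend over GC content and length, filters on low values and sums with overlapping genes. Sequences were read from GRCh37, the genome of the hg19 coordinates. Named genes were the 9 members, overlapping and adjacent genes, the 2 highest and lowest of each list and the nearest listed RNA; LINC00657, an older name of NORAD, was dropped from its list and 1 symbol was not matched. NONO, SON, SRRM2, METTL16, CDKN1C, MEG8, RTL1, DLK1, GAS5, SNHG5 and ZNF667-AS1, were added after their values were seen. Values of some genes in the lists are not reported here. The members and lists were chosen with earlier results of these data known. Steps were tested on simulated data. Python 3.11.15, pandas 2.3.3 and scipy 1.17.1 were used.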

Additional observations from a re-analysis of the deposited data

How the results depend on the processing

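Over the alternatives tried, none of the 9 RNAs passed 2-fold under any. MALAT1, TUG1, OIP5-AS1, PVT1 and H19 kept their sign throughout, with log2 differences of 0.60 to 0.73, -0.33 to -0.24, -0.28 to -0.19, 0.06 to 0.20 and -0.69 to -0.04. NEAT1 changed sign in 2 of 8 alternatives, NORAD in 5 of 7, KCNQ1OT1 in 1 of 7 (-0.14 without the GC and length trend) and MEG3 in 1 of 8 (0.01 from coverage). The median of the measured members, -0.08, became 0.0091 after centring and 0.0095 with trimmed mean scaling, since both raise the differences of abundant genes by 0.09. Genes higher and lower by 2-fold numbered 213 and 175; the counts were 389 and 353 with a pseudocount of 0.1, 58 and 45 with 5, 113 and 67 from FPKM, 132 and 87 without the GC and length trend, and 131 and 115 with 1 TPM required in both libraries. Centring gave 270 and 114. Why these counts moved was not tested. Depth limits H19, MEG3, KCNQ1OT1 and PVT1, whose wide intervals include 1. The interval of NORAD, 0.955 to 1.01, also includes 1 but is narrow. It rests on an estimated 12429 read pairs in metformin and 11217 in control. No paired analysis was possible because each group is 1 library.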
